A study of Mus musculus with 4 samples.

Results

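The genes described are 10 genes used as markers of vascular endothelium: Pecam1, Kdr, Tek, Flt1, Egfl7, Emcn, Eng, Tie1, Esam and Vwf. They were chosen as the rows of the deposited count table whose gene symbol matches this list, and all 10 were found, each once, among 25265 genes in the table. Whole testes of 56-day-old C57BL/6 mice gave 4 libraries, of which 2 carry the label control and 2 the label Ythdf2-vKO, written vKO below. The series title describes the mutation of Ythdf2 as specific to germ cells. The labels used here give neither the driver of the deletion nor the full genotype of the controls, nor do they name the animal behind each library, so that p-values measure only the spread between these libraries, which may be technical. Ythdf2 encodes a protein that binds RNA carrying N6-methyladenosine and promotes its decay.

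Endothelial cells line the blood vessels, and in the testis they form a capillary network in the interstitium, among the Leydig cells and around the seminiferous tubules. Their growth and survival depend on vascular endothelial growth factor (VEGF), which acts through the receptors encoded by Kdr (VEGFR2, the main signalling receptor) and Flt1 (VEGFR1, which binds VEGF tightly and also exists as a soluble decoy). Vessel stability depends on angiopoietins, ligands of the receptor encoded by Tek (TIE2), with which the orphan receptor Tie1 associates. Eng encodes endoglin, a co-receptor for ligands of the BMP and TGF-beta family. Vwf encodes von Willebrand factor, which is stored by endothelial cells and platelets and takes part in clotting. Pecam1, Esam and Emcn encode surface proteins of endothelial cells, Pecam1 and Esam at cell junctions and Emcn (endomucin) a sialomucin. Egfl7 encodes a secreted protein of the vessel wall.

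The promoters of 4 receptor genes are shown because the genes are those, among the receptors listed, in which both vKO libraries lay above both control libraries (values below). Each is the stretch of 250 bases before a transcription start in RefSeq's table for GRCm38.p6, written 5′ to 3′ on the strand of the gene. The capitals mark GGAA, the core recognised by ETS transcription factors, or its complement TTCC. The windows are chr5:147726012-147726261 on the minus strand for Flt1, chr5:75978456-75978705 on the minus strand for Kdr, chr4:94739039-94739288 on the plus strand for Tek and chr2:32646345-32646594 on the plus strand for Eng.
Flt1: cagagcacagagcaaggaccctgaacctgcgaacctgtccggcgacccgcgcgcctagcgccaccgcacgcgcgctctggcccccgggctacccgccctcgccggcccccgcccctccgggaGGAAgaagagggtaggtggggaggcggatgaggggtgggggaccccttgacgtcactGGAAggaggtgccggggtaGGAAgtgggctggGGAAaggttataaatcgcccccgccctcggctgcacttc
Kdr: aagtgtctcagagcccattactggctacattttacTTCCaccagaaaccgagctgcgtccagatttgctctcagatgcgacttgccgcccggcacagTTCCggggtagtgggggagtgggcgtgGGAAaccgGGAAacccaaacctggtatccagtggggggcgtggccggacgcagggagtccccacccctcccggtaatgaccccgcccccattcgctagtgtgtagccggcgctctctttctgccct
Tek: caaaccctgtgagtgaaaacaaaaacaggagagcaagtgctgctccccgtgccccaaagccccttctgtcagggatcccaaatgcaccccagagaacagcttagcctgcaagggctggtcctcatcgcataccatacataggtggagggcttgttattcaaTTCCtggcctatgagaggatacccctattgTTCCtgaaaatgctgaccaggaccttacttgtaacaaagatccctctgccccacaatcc
Eng: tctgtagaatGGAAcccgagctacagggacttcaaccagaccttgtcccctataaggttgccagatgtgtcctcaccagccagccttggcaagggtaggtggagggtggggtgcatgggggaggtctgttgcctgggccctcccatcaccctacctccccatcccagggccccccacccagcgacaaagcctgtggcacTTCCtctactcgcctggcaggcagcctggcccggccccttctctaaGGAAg

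GGAA was found on either strand 4 times in the Flt1 window, 4 times in the Kdr window, 2 times in the Tek window and 3 times in the Eng window. RefSeq's table held 9 such windows for 7 of the 10 genes (Pecam1, Esam and Vwf were not matched), and GGAA was present in all 9. The same letters are present in 93.4% of 32817 windows of this length, so their presence does not set these genes apart. The longer form CAGGAA, which contains GGAA, was found on either strand in 5 of the 9 windows and in 25.7% of all windows. These 5 belong to 4 of the 7 genes (Tek, Egfl7, Emcn and Tie1). Of the Tie1 window, 212 of 250 bases lay in annotated exons. GATAA, a core of GATA factor sites, was found on either strand in 1 of the 9 windows (Egfl7) and in 22.6% of all windows. These matches describe letters in a window and not binding.

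Egfl7 also hosts the endothelial microRNA miR-126, whose hairpin lies in an intron of 7 of the 12 protein-coding Egfl7 transcripts in GENCODE M21 and in an exon of a single retained-intron transcript. The mature arm, at chr2:26591402-26591423 on the plus strand (RefSeq, GRCm38.p6), is shown with its seed in capitals because reads of Egfl7 were counted across the gene that carries it.
mmu-miR-126a-3p: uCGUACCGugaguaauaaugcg
The microRNA itself was not analysed here.

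Total counts ranged from 24862518 to 29561182 per library. The targeted gene was not lower in the vKO libraries: Ythdf2 had 51.0 and 53.5 CPM (counts scaled to library size) in control against 66.2 and 66.9 CPM in vKO, a log2 fold change of 0.35 (SE 0.13, with an adjusted p of 0.238, Benjamini-Hochberg, from the quasi-likelihood test of edgeR). The deposited counts are per gene and do not show which exons were read. Directions below are therefore those of the libraries labelled vKO against the libraries labelled control. The tissue labels were compared with markers of other cells. The 10 germ cell genes listed summed to 5605 and 6431 CPM in control against 5162 and 5171 CPM in vKO, and the 10 Sertoli cell genes to 833 to 1187 CPM over the 4 libraries. The 10 endothelial genes summed to 42.2 and 32.1 CPM in control against 54.0 and 46.2 CPM in vKO. Vwf alone gave between 44.4% and 61.8% of the counts of the 10 genes in a library. All values in CPM are scaled by TMM, edgeR's correction for differences in composition between libraries.

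Per length, the endothelial genes spanned a wide range of levels. Levels between genes are given as CPM per kb of the longest transcript. Averaged over the 4 libraries, the level was 2.68 CPM per kb for Vwf, 1.43 for Egfl7, 1.04 for Flt1, 0.791 for Eng, 0.594 for Kdr and 0.400 for Esam. It was 0.348 CPM per kb for Tek, 0.193 for Pecam1, 0.143 for Tie1 and 0.0706 for Emcn. Vwf lay at percentile 42.9 of the genes tested, Flt1 at percentile 25.8, Pecam1 at percentile 4.32 and Tie1 at percentile 2.56. Pecam1, whose protein CD31 is widely used to stain vessels, was thus near the bottom of the genes tested in this tissue. Each gene exceeded the next in the order in at least 3 of the 4 libraries, but the ranges of neighbours over the 4 libraries overlapped for every adjacent pair except Tie1 and Emcn. With the length of the merged exons in place of the longest transcript, Vwf, Egfl7, Kdr and Emcn kept their ranks, while Flt1 and Eng, Esam and Tek, and Pecam1 and Tie1 changed places. In whole tissue, fewer endothelial cells and less RNA per cell cannot be told apart.

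**Figure D1:**
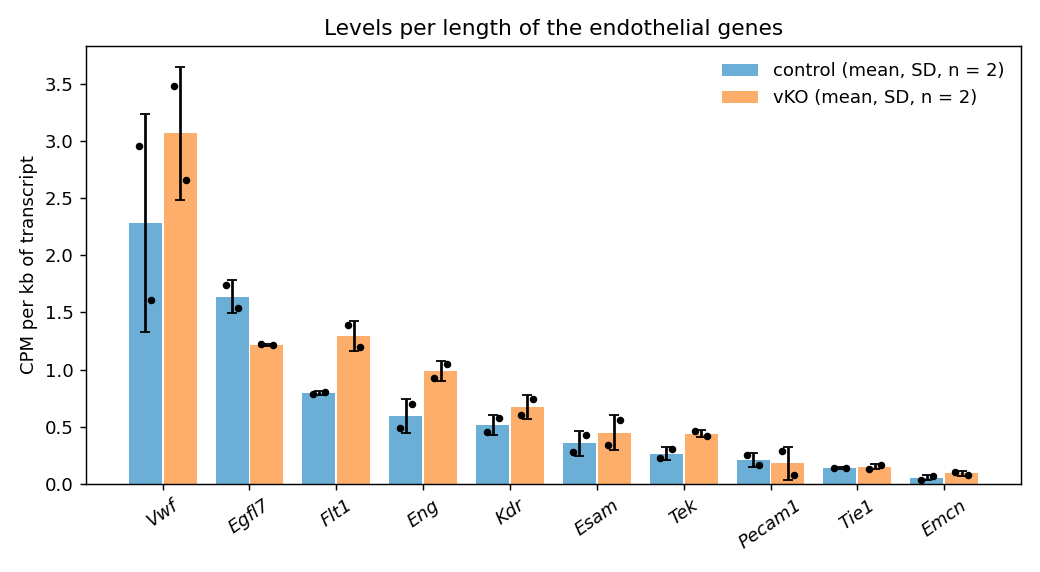
Level per length of the 10 endothelial genes in CPM per kb of the longest transcript. Bars are means of 2 libraries per group, error bars are SD and points are single libraries. Vwf is highest at 2.28 in control against 3.07 in vKO, and Emcn is lowest.

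In the comparison of the genotypes, 7 of the 9 endothelial genes tested had a higher fitted level in the vKO libraries. The other 2, Egfl7 and Pecam1, had a lower one. Of all genes tested, 50.3% had a positive log2 fold change. The median log2 fold change of the 9 genes was 0.37, against 0.0027 over all genes tested, and it was 0.56 without control replicate 2. None passed the threshold: 0 of 9 were called by edgeR's quasi-likelihood test at an adjusted p under 0.05, where 0.393% of all 21132 genes tested were called (83 genes). A DESeq2 Wald test, which called 217 genes over the whole table, also called 0 of these. At an unadjusted p under 0.05 there were 2, Flt1 and Eng, both higher in vKO, where 7.65% of all genes were higher and 6.47% lower at that p. The groups did not overlap in 5 of the 9 genes. Both vKO libraries were above both control libraries in 4 of them (Flt1, Tek, Eng and Kdr), against 22.7% of all genes tested. Both were below in 1 (Egfl7), against 22.6%. Emcn was too low to be tested. With 9 genes these counts are a description only. The number of genes called over the whole table rested strongly on single libraries: it was 1512 without control replicate 1, 1077 without control replicate 2 and 35 without vKO replicate 1, in fits that assume the lone library of a group to vary like the others.

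**Figure D2:**
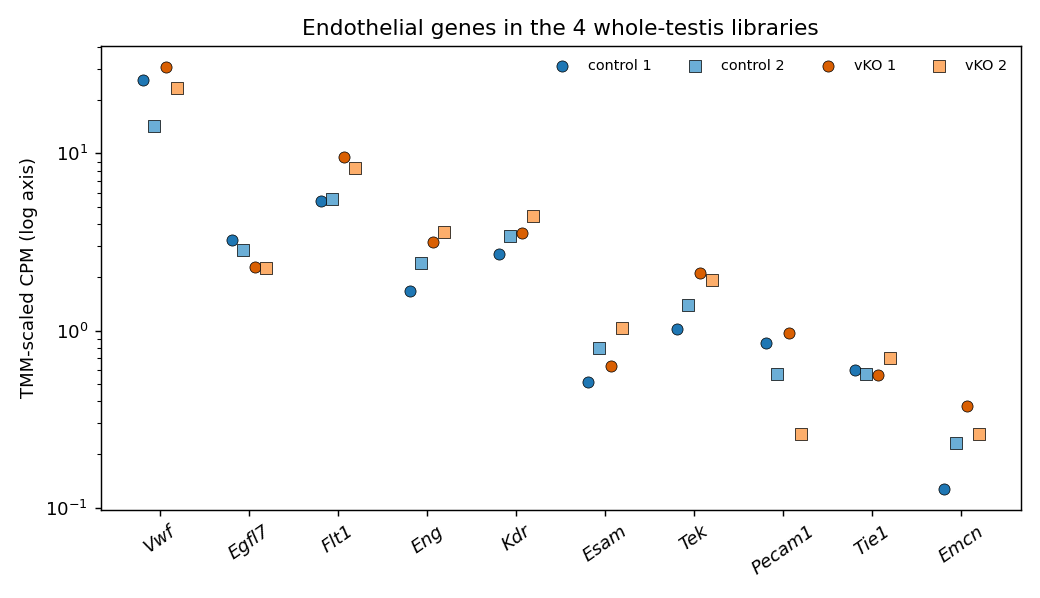
TMM-scaled CPM of the 10 endothelial genes in each library, on a log axis, with circles for replicate 1 and squares for replicate 2. In Flt1, Eng, Kdr and Tek both vKO points lie above both control points, as in 22.7% of all genes tested. In Egfl7 both lie below, as in 22.6%. Emcn, too low to be tested, also has both vKO points above, but control replicate 2 and vKO replicate 2 had 7 counts each. In the other 4 genes the groups overlap.

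Of the VEGF receptor genes, Flt1 had the lowest p of the 9 genes tested, while Kdr had a smaller difference between the groups. Flt1 (ENSMUSG00000029648, minus strand of chromosome 5, 147561604 to 147726011 in GRCm38) had 126 and 167 counts in control against 256 and 223 in vKO, or 5.39 and 5.57 CPM against 9.56 and 8.26 CPM. Both vKO libraries were high, and the control libraries lay close to each other. The means were 5.48 ± 0.127 and 8.91 ± 0.917 CPM (SD, n = 2 each), a log2 fold change of 0.70 (SE 0.20, 95% interval 0.26 to 1.14) with an adjusted p of 0.158 by edgeR's quasi-likelihood test. This 1.63-fold difference was larger than the spread of either pair of libraries, but it did not pass the threshold over all genes. Counts over the gene do not separate the membrane receptor from the soluble form. Kdr (ENSMUSG00000062960, minus strand of chromosome 5, 75932827 to 75978458) had 63 and 103 counts in control against 95 and 119 in vKO. In CPM these were 2.69 and 3.43 against 3.55 and 4.41, so that the higher control library and the lower vKO library were nearly level. The log2 fold change of Kdr was 0.37 (SE 0.27, 95% interval -0.21 to 0.95, adjusted p = 0.588 by edgeR).

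Of the angiopoietin receptor pair, Tek was higher in both vKO libraries and Tie1 was not. Tek (ENSMUSG00000006386, plus strand of chromosome 4, 94739289 to 94874976) had 24 and 42 counts in control against 57 and 52 in vKO, or 1.03 and 1.40 CPM against 2.13 and 1.93 CPM. Its log2 fold change was 0.73 (SE 0.36, 95% interval -0.05 to 1.51, adjusted p = 0.394 by edgeR), close to that of Eng (0.72). Tie1 (ENSMUSG00000033191, minus strand of chromosome 4, 118471191 to 118490061) had 14 and 17 counts in control against 15 and 19 in vKO. The groups of Tie1 overlapped, at 0.599 and 0.567 against 0.560 and 0.704 CPM. With so few reads the 95% interval of its log2 fold change ran from -1.04 to 1.27, which includes the value seen for Tek. Whether Tek and Tie1 differ in response was not tested.

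Eng (ENSMUSG00000026814, plus strand of chromosome 2, 32646595 to 32682669) had 39 and 72 counts in control against 85 and 97 in vKO. This was 1.67 and 2.40 CPM against 3.17 and 3.59 CPM, with control replicate 1 lowest. The log2 fold change was 0.72 (SE 0.30, 95% interval 0.07 to 1.37, unadjusted p = 0.0317, adjusted p = 0.301 by edgeR). A stretch of 61 bases at the 3′ end of Eng, 1.51% of its merged exons, overlaps Fpgs on the opposite strand. Fpgs had 570 and 736 counts in control against 566 and 632 in vKO. The libraries are directional, but the strand setting of the counting is not given in the sources used here.

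**Figure D3:**
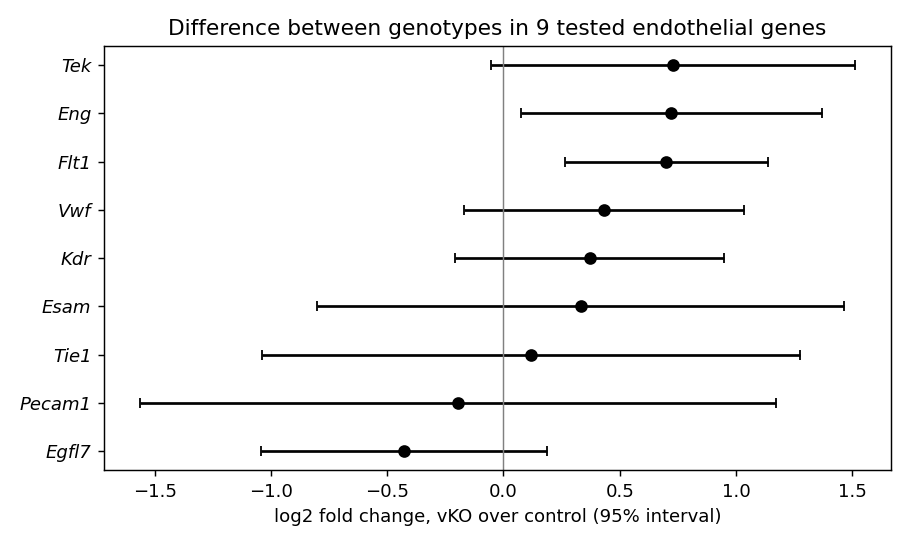
Fitted log2 fold change of vKO over control for the 9 endothelial genes tested, with 95% intervals. Intervals of Flt1 (0.26 to 1.14) and Eng (0.07 to 1.37) exclude 0 before adjustment for all genes, and those of Pecam1, Tie1 and Esam are the widest.

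Vwf had the most counts, and its control libraries differed widely. Vwf (ENSMUSG00000001930, plus strand of chromosome 6, 125546774 to 125686679) had 611 and 427 counts in control against 824 and 634 in vKO. These were 26.1 and 14.2 CPM against 30.8 and 23.5 CPM, so that control replicate 1 lay above vKO replicate 2 and the groups overlapped. The means were 20.2 ± 8.41 and 27.1 ± 5.15 CPM (SD, n = 2 each), with a log2 fold change of 0.43 (SE 0.26, 95% interval -0.17 to 1.04, adjusted p = 0.523 by edgeR). The exact 95% Poisson intervals of the control counts, 564 to 661 and 387 to 469, do not meet, although the library with fewer Vwf counts was the deeper one. These intervals cover counting error only. The size rested on the control library used: without control replicate 1 the log2 fold change was 0.92 (adjusted p = 9.06e-05 by edgeR), and without control replicate 2 it was 0.05 (adjusted p = 0.922). These fits leave 1 control library, which is assumed to vary like the others.

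Egfl7 was the one gene in which both vKO libraries lay below both control libraries. Egfl7 (ENSMUSG00000026921, plus strand of chromosome 2, 26580014 to 26593120) had 76 and 86 counts in control against 61 and 61 in vKO. Scaled, these were 3.25 and 2.87 CPM against 2.28 and 2.26 CPM, with the vKO libraries nearly equal. The log2 fold change was -0.43 (SE 0.28, 95% interval -1.04 to 0.19, adjusted p = 0.549 by edgeR). It stayed negative under each alternative run, between -0.58 and -0.34. The annotated gene Gm20532 shares 264 bases, or 7.37%, of Egfl7's merged exons on the same strand. Agpat2 overlaps 64 bases on the opposite strand, and it had 3591 and 3957 counts in control against 3214 and 3169 in vKO. How reads in the shared stretches were counted is not stated, so the value of Egfl7 is uncertain to that extent.

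The surface protein genes were near the lower limit of measurement. Pecam1 (ENSMUSG00000020717, minus strand of chromosome 11, 106654217 to 106750628) had 20 and 17 counts in control against 26 and 7 in vKO, or 0.855 and 0.567 CPM against 0.970 and 0.259 CPM. The vKO libraries were the highest and the lowest of the 4. Its log2 fold change of -0.20 (SE 0.63, 95% interval -1.56 to 1.17) had no stable direction, being 0.46 without vKO replicate 2, 0.11 without control replicate 1 and -1.43 without vKO replicate 1. Esam (ENSMUSG00000001946, plus strand of chromosome 9, 37528078 to 37538319) had 12 and 24 counts in control against 17 and 28 in vKO. In both groups replicate 2 was higher, at 0.513 and 0.800 CPM in control against 0.635 and 1.04 CPM in vKO, and the groups overlapped. Its log2 fold change was 0.33 (95% interval -0.80 to 1.46), and -0.06 without vKO replicate 2. Emcn (ENSMUSG00000054690, plus strand of chromosome 3, 137341067 to 137432185) had 3 and 7 counts in control against 10 and 7 in vKO, and did not pass the filter on low counts. The exact 95% Poisson interval of 3 counts, 0.619 to 8.77, contains the 7 counts of the other control library and of vKO replicate 2.

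The spread between libraries of a group was larger for these genes than for all genes tested, which were not matched to them in level. The 9 genes lay at percentiles 2.56 to 42.9 in level per length, and their spread was not compared with that of genes at like levels. Between the control libraries, the 9 tested genes differed by a median of 0.41 on the log2 scale of CPM, against 0.24 over all genes tested, and between the vKO libraries by 0.28 against 0.18. The median fitted log2 fold change between the groups was 0.37, but with signs kept, 2 of the 9 being negative. The medians between libraries ignore sign, so the 0.37 cannot be set against them directly. Of the 10 genes, 6 were higher in control replicate 2 than in control replicate 1, Vwf, Pecam1, Egfl7 and Tie1 being the exceptions. The median deviation of the 9 genes from their own 4-library mean was -0.36 and -0.09 in control against 0.29 and 0.24 in vKO.

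The ligands and partners of these receptors had values of both signs and no call. Of 11 genes listed, 9 were tested, 0 were called, and the median log2 fold change was 0.32. That median was 0.02 without control replicate 2 and 0.11 with an offset for GC content. Vegfa, the main ligand of Kdr and Flt1, had 3.29 and 3.40 CPM in control against 6.01 and 4.85 CPM in vKO, a log2 fold change of 0.70 (SE 0.24, unadjusted p = 0.0128, adjusted p = 0.225 by edgeR). The co-receptor gene Nrp1 had a log2 fold change of 0.90 (SE 0.35, edgeR adjusted p = 0.267). Ptprb, which encodes the phosphatase VE-PTP that acts on TIE2, was lower in both vKO libraries, at 3.42 and 4.13 CPM in control against 1.90 and 2.37 CPM, a log2 fold change of -0.82 (SE 0.28, edgeR adjusted p = 0.224). Flt4, the receptor of lymphatic growth factors, had 11.4 ± 3.62 and 14.2 ± 3.63 CPM (SD, n = 2 each), and its groups overlapped. Pgf, a ligand of Flt1, had a log2 fold change of -0.02 (SE 0.25) and Nrp2 of -0.04 (SE 0.22), both positive when scaled by library totals alone. The log2 fold change of Flt4 rested on the libraries used. It was 0.67 without control replicate 1 and 0.55 without vKO replicate 2, but 0.02 without control replicate 2 and 0.03 without vKO replicate 1. Vegfa, Nrp1 and Ptprb, like the other genes at an unadjusted p under 0.05 named below, were chosen after their values were seen.

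Other genes of endothelial identity gave a single call over all 4 libraries, Robo4. Of 25 genes listed, 22 were in the table and 15 were tested. Robo4, a roundabout receptor of endothelial cells, had 6 and 20 counts in control against 101 and 94 in vKO, and rose from 0.462 ± 0.290 to 3.63 ± 0.204 CPM (SD, n = 2 each). Its log2 fold change was 2.91 (SE 0.41, edgeR adjusted p = 0.0166), 2.43 without control replicate 1 and 3.80 without control replicate 2. The size thus rested on the control library used. Robo4 was not tested where at least 10 counts were asked of every library. The largest log2 fold change among the 9 tested members of the endothelial set was 0.73. Cdh5, which encodes VE-cadherin of endothelial junctions, had 2.57 and 2.97 CPM in control against 4.33 and 5.52 CPM in vKO, a log2 fold change of 0.83 (SE 0.26, unadjusted p = 0.00705, adjusted p = 0.186). Cldn5 of the tight junction had 0.22 (SE 0.34) and Nos3, the endothelial nitric oxide synthase, 0.08 (SE 0.25), and the groups of both overlapped. Cd34 had 3.59 and 8.60 CPM in control against 6.76 and 5.44 CPM in vKO, and its log2 fold change was -0.01 (SE 0.35), positive when scaled by library totals alone. Rasip1, a regulator of vessel lumen formation, had 0.50 (SE 0.26), and it was called without control replicate 1 (0.92, edgeR adjusted p = 0.0313) with a value of 0.16 without control replicate 2. Over the 15 genes the median log2 fold change was 0.22, with 11 positive. It was 0.74 without control replicate 2, 0.41 without vKO replicate 2, 0.11 without control replicate 1 and 0.08 without vKO replicate 1.

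Regulators and pathway genes did not pass the threshold over all 4 libraries. Of 16 endothelial transcription factor genes, 16 were tested, with a median log2 fold change of 0.09 and 0 calls. The median was 0.25 both without control replicate 1 and without vKO replicate 2. The flow-responsive factor Klf2 had 20.1 and 16.1 CPM in control against 23.7 and 24.1 CPM in vKO (log2 fold change 0.41, SE 0.16), and Epas1 (HIF-2 alpha) had a log2 fold change of 0.41 (SE 0.15, edgeR adjusted p = 0.241). Sox17 was lower in both vKO libraries, with means of 16.0 ± 5.25 CPM in control against 10.7 ± 0.401 CPM in vKO (SD, n = 2 each) and a log2 fold change of -0.57 (SE 0.21, edgeR adjusted p = 0.253). These factors are not limited to vessels, and Klf4, the most abundant of them here, had a log2 fold change of 0.34 (SE 0.16). Klf4 was called without control replicate 1 (0.62, edgeR adjusted p = 0.000106) and had 0.10 without control replicate 2. Gata2 had -0.09 (SE 0.17), with groups that overlapped. In the vascular Notch list, 9 of 9 genes were tested with 0 calls and a median of 0.38. That median was 0.17 with at least 10 counts in every library, 0.14 with an offset for GC content and 0.24 without vKO replicate 1. Notch1 had 3.55 and 3.30 CPM in control against 8.51 and 5.74 CPM in vKO, with a log2 fold change of 1.06 (SE 0.25, edgeR adjusted p = 0.0994). The more abundant genes of the list, Jag1, Jag2 and Notch4, had log2 fold changes of -0.28 (SE 0.18), 0.38 (SE 0.17) and 0.17 (SE 0.18). Jag1 was called without control replicate 2 (-0.51, edgeR adjusted p = 0.029) and had -0.02 without control replicate 1. In the list of endoglin's partners in BMP and TGF-beta signalling, 11 of 13 genes were in the table and tested, with 0 calls and a median of 0.20, which was 0.09 to 0.30 with 1 library left out. Tgfbr1, Smad1 and Smad5, the most abundant of them, had log2 fold changes of -0.03 (SE 0.13), 0.23 (SE 0.16) and -0.08 (SE 0.13), that of Tgfbr1 turning positive when scaled by library totals alone. Id3, a target of that pathway, had a log2 fold change of 0.91 (SE 0.39, edgeR adjusted p = 0.321). Over these 5 vascular lists together, 60 genes were tested and 39 had a positive value, against 50.3% of all genes tested. Of the 60, 1 was called higher and 0 lower, where 0.393% of all genes were called. At an unadjusted p under 0.05 by edgeR, 11 were higher and 2 lower, against 7.65% and 6.47% of all genes.

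**Figure D4:**
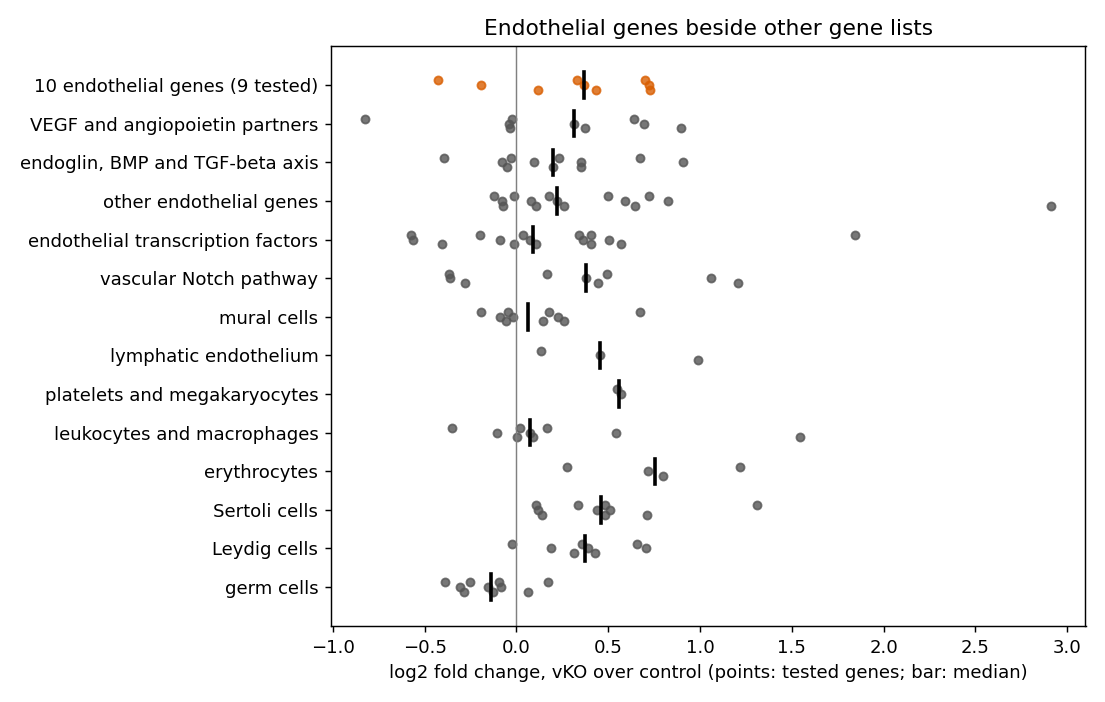
Fitted log2 fold change of vKO over control for each tested gene (points) and the median (bar) in the endothelial genes and 13 other lists. The endothelial median of 0.37 lies beside those of Leydig cells (0.38), the vascular Notch list (0.38) and the VEGF and angiopoietin partners (0.32). The medians of other endothelial genes (0.22), endothelial transcription factors (0.09) and mural cells (0.06) are lower. Those of Sertoli cells (0.46) and erythrocytes (0.76) are higher, and Robo4 stands out at 2.91.

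Markers of other somatic cells also had positive medians, where 50.3% of all genes tested had a positive value. Sertoli cell genes had a median log2 fold change of 0.46, positive in 10 of 10, with Wt1 called (0.71, SE 0.13, edgeR adjusted p = 0.0418). Wt1 was no longer called without vKO replicate 1 (adjusted p = 0.338), without vKO replicate 2 (0.0824) and without robust estimation (0.0501). Clu and Cldn11, the most abundant Sertoli genes listed, had log2 fold changes of 0.34 (SE 0.12) and 0.51 (SE 0.12). Cldn11, at an adjusted p of 0.105, was called in 7 of 15 alternatives, among them the DESeq2 Wald test (adjusted p = 0.0404) and library totals alone (0.0419). Without control replicate 2, log2 fold changes were 0.40 for Clu, 0.48 for Insl3, 0.43 for Cyp17a1 and 0.84 for Hbb-bs. Those of the germ cell genes Prm2 and Tnp2 were negative in that fit, at -0.41 and -0.40. The summed level of the Sertoli list was 833 to 895 CPM in control against 1041 to 1187 CPM in vKO. Most of this sum was Clu, with 658 and 714 CPM in control against 933 and 801 CPM in vKO. Leydig cell genes had a median of 0.38, positive in 7 of 8 (Cyp17a1 0.19, SE 0.19, and Insl3 0.43, SE 0.14), with sums of 301 to 365 CPM in control against 357 to 478 CPM in vKO. Genes of erythrocytes, which fill the vessels, had a median of 0.76 (0.41 without vKO replicate 1), positive in 4 of 4 tested. Hbb-bs had 0.80 (SE 0.25) and Alas2 0.27 (SE 0.17). The erythrocyte list summed to 26.8 to 32.5 CPM in control against 39.2 to 42.2 CPM in vKO. Most of this sum was Alas2, with 17.4 and 22.9 CPM in control against 22.3 and 26.5 CPM in vKO, where the groups overlapped. Germ cell genes had a median of -0.14, positive in 2 of 10, and the protamine gene Prm2 had -0.29 (SE 0.12) and the transition protein gene Tnp2 -0.25 (SE 0.13). The part of these differences in the endothelial values was not tested.

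Cells that touch vessels or share their markers were compared in the same way. Mural cell genes (pericytes and smooth muscle, with Acta2 and Myh11 also in peritubular myoid cells) had a median log2 fold change of 0.06 and 0 calls among 10 tested. This median had no stable sign, at -0.16 without control replicate 1, -0.10 without vKO replicate 1, -0.09 with an offset for GC content and 0.36 without control replicate 2. Acta2 had 0.18 (SE 0.28), Mcam 0.23 (SE 0.20) and Myh11 -0.05 (SE 0.25), the last turning positive when scaled by library totals alone. Their sums, 57.0 and 89.9 CPM in control against 90.7 and 64.4 CPM in vKO, overlapped between the groups. Leukocyte and macrophage genes had a median of 0.07 (Lyz2 0.17, SE 0.56, and Mrc1 0.02, SE 0.16), and their sums were 62.7 and 111 CPM in control against 101 and 86.5 CPM in vKO. Leaving out control replicate 1 brought that median to -0.22, and leaving out control replicate 2 to 0.98, with Lyz2 called in the latter fit (1.16, edgeR adjusted p = 5.79e-06). The endothelial median was 0.31 and 0.56 in the same fits. Platelets store Vwf and carry Pecam1: their genes Pf4 and Itga2b had 0.751 ± 0.0257 and 2.48 ± 0.356 CPM in control against 1.12 ± 0.637 and 3.62 ± 0.585 CPM in vKO (SD, n = 2 each), and the other listed platelet gene in the table, Gp1ba, had 0 counts in control replicate 1. Of the lymphatic genes, Prox1 had a log2 fold change of 0.46 (SE 0.19) and Pdpn of 0.99 (SE 0.29, edgeR adjusted p = 0.162) and Reln of 0.14 (SE 0.18), whereas Lyve1 had 1 and 0 counts in control against 4 and 5 in vKO. The part of platelet, lymphatic or leukocyte RNA in the endothelial values was not tested.

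The authors' deposited table made no call among these genes. It held an adjusted p for 6 of the 10 and none was under 0.05, where 217 of 16448 genes with an adjusted p were. The DESeq2 Wald test run here on the same counts also called 217, so these are not separate results. In the authors' deposited table the log2 fold change of Flt1 was 0.70 (SE 0.26, adjusted p = 0.19) and that of Eng was 0.73 (SE 0.40, adjusted p = 0.473). Emcn, left out of the edgeR test, had 0.79 with an SE of 1.21 in the authors' deposited table.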

How the data were processed

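RNA of whole testes was depleted of ribosomal RNA and made into directional libraries, per the labels' protocols. The authors deposited 1 table of raw read counts per gene and library. HISAT2 2.1.0 and HTSeq 0.6.1p1 are named in the submitters' processing notes, while the settings, strand option and genome build are not given in the sources used here. Per the file headers, whose names are those of DESeq2, the table also holds the authors' mean normalized count (a signal averaged over the libraries), log2 fold change with its standard error, a test statistic (a score), p-value and adjusted p-value. The lowest count of any gene in the table, summed over libraries, was 10. Total counts were 24862518 and 29561182 in control against 26298245 and 26265700 in vKO. The labels mention no molecular identifiers, so counting intervals cover counting error only.

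Counts were tested with edgeR 4.0.16 (limma 3.58.1, R 4.3.3): TMM scaling, filterByExpr, a robust quasi-likelihood fit of group alone on all 4 libraries and a two-sided F test, adjusted by Benjamini-Hochberg over all 21132 genes tested. The threshold for a call was an adjusted p under 0.05. The SE is the absolute log2 fold change divided by the square root of F. Coordinates, lengths and GC content came from GENCODE M21 (GRCm38), in which 25241 identifiers were found and 24 were not. The fit was tested on simulated data. Differences between libraries used log2 of CPM plus 0.1. Alternatives covered scaling, filters, DESeq2 1.42.0, robust estimation, the replicate number as a block, offsets for GC content and length, and each library left out.

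Genes named by rule were Ythdf2, the 10 endothelial genes and every called gene of 13 companion lists. The same rule took the most abundant 3 tested genes of each vascular list and 2 of each other list. Outside this rule, some listed genes at an unadjusted p under 0.05 by edgeR were named after their values were seen. Others at that p, such as Fli1, Hes1 and Cd163, were not. Cldn5, Lyve1 and Gp1ba were also named outside the rule. The lists held 138 genes, of which 129 were in the table and 116 were tested. The members and lists were chosen with earlier results of these data known.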

Additional observations from a re-analysis of the deposited data

How the results depend on the processing

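No alternative changed the direction of Flt1, Tek, Eng, Kdr, Egfl7 or Vwf. Low counts limit what can be said of Pecam1, Tie1, Esam and Emcn. The number of genes called over the table, 83, was 218 with library totals alone, 217 with the DESeq2 Wald test, 139 with the GC offset, 10 at an adjusted p under 0.01 and 35 to 1512 with 1 library left out. The count of companion genes called, 2, was 4 with library totals alone, 1 with at least 10 counts in every sample, 1 without robust estimation and 1 to 24 with 1 library left out. Among the endothelial genes, leaving out 1 library gave 0 to 1 calls (Vwf without control replicate 1), medians of 0.31 to 0.56 and 6 to 9 genes whose groups did not overlap. With 1 library against 2, 67.5% to 75.7% of all genes tested did not overlap either, against 45.3% over all 4 libraries, so these counts are not comparable with the 5 genes reported.

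The replicate numbers are not stated to pair the libraries. The deviation of replicate 1 from its group mean correlated at 0.108 between control and vKO over 17827 genes. With 2 libraries per group, replicate 2 mirrors replicate 1 and adds no second value. With the replicate block, 1017 genes, 1 endothelial gene (Flt1, adjusted p = 0.0478 by edgeR) and 8 companion genes were called. With the block and the GC offset these were 1322, 1 (Flt1, adjusted p = 0.0283) and 17, and with the block and the length offset 275, 0 (Flt1, adjusted p = 0.114) and 3.

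Several log2 fold changes changed sign, most of them near 0 but also those of Pf4 (0.57) and Esam (0.33). With library totals alone Nrp2 was 0.035, Pgf 0.0425, Tgfbr1 0.0336, Cd34 0.0338 and Myh11 0.0045. Cd34 was 0.0868 with the block and 0.0482 with the block and the length offset. With the GC offset Tie1 was -0.0501, Tgfbr1 0.0561, Cd34 0.0679, Nos3 -0.0996 and Notch4 -0.0677, and with the block as well they were -0.0533, 0.0552, 0.1561, -0.1094 and -0.0662. Mrc1 was -0.0287 with the length offset and -0.0269 with the block as well. With 1 library left out the ranges were -1.4275 to 0.4576 for Pecam1, -0.2342 to 0.1768 for Nrp2, -0.256 to 0.09 for Gata2, -0.2678 to 0.5191 for Acta2, -0.1485 to 0.167 for Mrc1, -0.4067 to 1.1561 for Lyz2, -0.104 to 0.4303 for Cyp17a1, -0.1038 to 0.044 for Tgfbr1, -0.5026 to 0.7642 for Cd34, -0.399 to 0.4218 for Myh11, -0.3509 to 0.2415 for Pgf, -0.1698 to 1.0564 for Pf4, -0.0566 to 0.2726 for Tie1, -0.0632 to 0.7013 for Esam and -0.1243 to 0.2589 for Nos3. The cause of these changes was not tested.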

Other observations

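Ratios within a library, which do not depend on scaling between libraries, were compared on the scale of CPM per kb. The ratio of Flt1 to Kdr, the genes of both VEGF receptors, was 1.72 and 1.39 in control against 2.32 and 1.61 in vKO, so the groups overlapped. The ratio of Tek to Tie1 was 1.56 and 2.25 in control against 3.46 and 2.49 in vKO. These values did not overlap, but they rested on 14 to 19 counts of Tie1 per library. For comparison, the CPM of 45.3% of all genes tested did not overlap between the groups, in either direction, which is a share of single genes and not of ratios. The ratio of Egfl7 to Kdr was 3.83 and 2.65 in control against 2.04 and 1.63 in vKO. This ratio could not overlap, because Egfl7 was lower and Kdr higher in both vKO libraries than in both control libraries. It therefore adds nothing to the values of Egfl7 and Kdr. The ratio of Vwf to Pecam1 was 11.9 and 9.78 in control against 12.3 and 35.3 in vKO, the last value resting on 7 counts of Pecam1. These ratios were chosen after the values of the genes were seen, and no test was run on them.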
